A study of Mus musculus with 426 samples.

Results

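The genes described here are 10 immune checkpoint ligands and receptors of the mouse, namely Cd274, Pdcd1lg2, Pdcd1, Ctla4, Havcr2, Lag3, Cd80, Cd86, Cd47 and Sirpa, chosen by symbol from 24424 gene rows, and all 10 were found. RNA and DNA were read together from single cells of an orthotopic pancreatic tumour model in 3 mice. In every group the host was a C57BL/6 male of 6 to 8 weeks that received 50000 cells of the KPC1199-EGFP line in matrigel into the pancreas, and tumours then grew for 6 to 8 weeks. KPC1199-EGFP is 1 mouse pancreatic cancer line carrying a green fluorescent protein (GFP), so GFP marks the injected cells, and the labels name no altered gene in the hosts. From the primary tumour, live cells were sorted as CD45+ (56 cells kept of 58; CD45 is the pan-leukocyte surface protein), EpCAM+ (25 of 28; EpCAM is an epithelial surface protein), GFP+EpCAM+ (31 of 33) and GFP+ (76 of 96). GFP+ cells were also sorted from growths in the peritoneum (85 of 86), kidney (44 of 44), liver (16 of 33) and spleen (35 of 40). The primary sorts and the peritoneum came from 3 mice each, and kidney, liver and spleen from mice 2 and 3. The mouse was the replicate, and cells were kept with at least 500 detected genes and 10000 RNA counts.

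Immune checkpoints are pairs of surface proteins that raise or lower the response of T cells and phagocytes. PD-L1 (encoded by Cd274) and PD-L2 (Pdcd1lg2) on tumour or myeloid cells bind PD-1 (Pdcd1) on T cells and dampen their signalling. CD80 and CD86 on antigen-presenting cells bind the activating receptor CD28 and the inhibitory receptor CTLA-4 (Ctla4), TIM-3 (Havcr2) and LAG-3 (Lag3) are further inhibitory receptors, and CD47 on most cells binds SIRP-alpha (Sirpa) on myeloid cells and inhibits phagocytosis.

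Levels are CPM (counts scaled to a library total of 1000000), not scaled to gene length, so they are compared between groups for 1 gene. The background of olfactory receptor genes described below is the exception, and it takes no account of gene length. A mean level is the mean CPM over the cells of 1 mouse, and a summed level is the CPM of the counts of those cells added together, in which deep cells weigh more. Kept cells held 10805 to 17845616 RNA counts, with medians per group between 65672 in liver and 2093406 in GFP+EpCAM+ cells and 784903 in CD45+ cells. The sorts carried their markers: summed Ptprc, which encodes CD45, was 160.0 to 461 CPM in CD45+ and 0.605 to 2.20 CPM in GFP+ primary cells. Of the 56 CD45+ cells, 46 had at least 2 of 6 pan-leukocyte markers above background, 23 had at least 2 of 5 epithelial markers and 17 at least 2 of 6 fibroblast markers. The part of such marker overlap in the results below was not tested. GFP+ cells of the spleen carried fibroblast markers at 11550 to 17654 CPM summed over 6 genes and epithelial markers at 206 to 330.2 CPM summed over 5 genes. Fibroblast markers were not particular to spleen, at 2369 to 12892 CPM in GFP+ primary and 1087 to 15589 CPM in peritoneal cells. Epithelial markers were at 709.5 to 8818 CPM in GFP+ primary and 117 to 8261 CPM in peritoneal cells.

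Because amplified genomic DNA shares the tube with the complementary DNA, each cell's own olfactory receptor genes, a family used as a background that these cells should not express, set the level below which a gene was not read as above background. A cell was counted as above background for a gene when its CPM passed the 99th percentile of the 1125 olfactory receptor genes of that cell with at least 1 count. By the same rule an olfactory receptor gene was above in 0.864% of CD45+ cells on average, and in 8.93% for the highest of them. By this rule 46 of 56 CD45+ cells (82.1%, SD over mice 8.99) had at least 1 of the 10 genes above background. None was above in 10 of these cells, 1 gene in 11, 2 in 7, 3 in 10, 4 in 8, 5 in 5, 6 in 2 and 7 in 3.

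**Figure D1:**
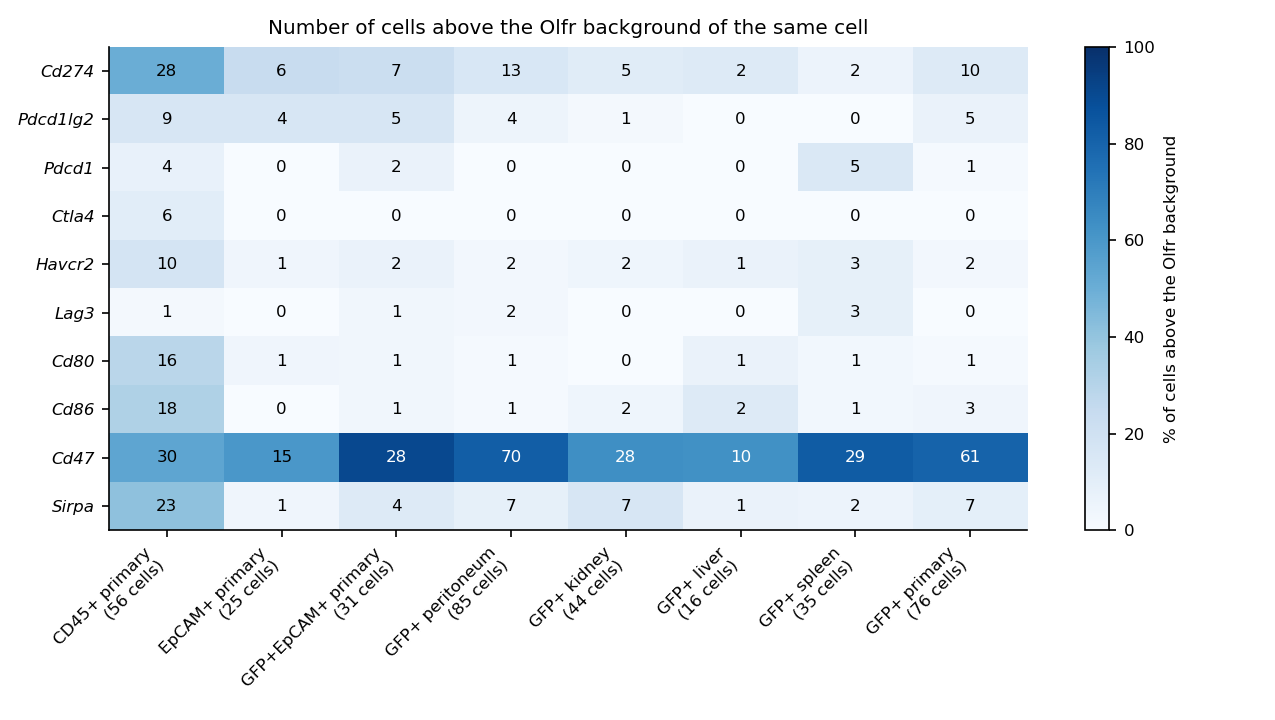
Number of kept cells above the olfactory receptor background of the same cell for each gene (rows) and group (columns, with the number of cells), coloured by percent of cells. Cd47 was above background in 10 to 70 cells of every group, Ctla4 in 6 cells of the CD45+ sort and in none of the other groups.

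Promoter sequences are shown for 3 of the genes whose levels the results turn on: Cd274, which passed in 1 of the comparisons below, Cd80, which was above background in at most 1 cell of each group outside the CD45+ sort, and Cd47, which was found in every group. They are the 250 bases before the RefSeq start on the plus strand of GRCm38.p6, at chr19:29367188-29367437 for Cd274, chr16:38458683-38458932 for Cd80 and chr16:49855404-49855653 for Cd47, with CG dinucleotides in capitals.
Cd274: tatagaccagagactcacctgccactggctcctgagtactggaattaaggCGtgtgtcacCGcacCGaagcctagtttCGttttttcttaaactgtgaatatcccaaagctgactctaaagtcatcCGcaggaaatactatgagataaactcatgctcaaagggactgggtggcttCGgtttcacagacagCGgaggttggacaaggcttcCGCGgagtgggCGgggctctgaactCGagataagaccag
Cd80: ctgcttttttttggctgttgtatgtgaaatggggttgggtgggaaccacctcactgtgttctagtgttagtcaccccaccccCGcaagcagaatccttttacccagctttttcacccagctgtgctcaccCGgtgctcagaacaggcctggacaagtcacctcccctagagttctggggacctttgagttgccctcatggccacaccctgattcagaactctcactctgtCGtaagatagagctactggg
Cd47: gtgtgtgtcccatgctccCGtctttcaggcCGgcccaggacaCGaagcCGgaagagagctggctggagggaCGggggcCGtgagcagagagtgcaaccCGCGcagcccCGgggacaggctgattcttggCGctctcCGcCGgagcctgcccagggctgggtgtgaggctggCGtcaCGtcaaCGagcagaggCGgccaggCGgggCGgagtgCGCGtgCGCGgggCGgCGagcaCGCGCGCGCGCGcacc

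The Cd47 window held 30 CG dinucleotides, the Cd274 window 11 and the Cd80 window 3, where all 32851 RefSeq promoters of that length had a median of 6 and quartiles of 2 and 16. Thus 94.8% of promoters had no more CG than that of Cd47, 66.5% no more than that of Cd274 and 37.8% no more than that of Cd80. The windows of Pdcd1lg2 and Pdcd1 held 3 each, that of Ctla4 7 and that of Havcr2 2, and Cd86, Lag3 and Sirpa have no entry in the table used here. Both strands were searched for the interferon-stimulated response element core (2.977% of all promoters) and the PU.1 core gaggaag (10.612%). The PU.1 core was present at bases -87 to -81 of Pdcd1 and -8 to -2 of Havcr2, and the other windows held neither.

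In CD45+ cells against GFP+ cells of the primary tumour, which asks what sorted leukocytes carry beside tumour cells of the same organ, Cd80 and Cd86 rose, and no gene of the 10 was called lower. Summed CPM was compared with edgeR's quasi-likelihood test over 19703 genes with Benjamini-Hochberg adjustment, and 2 of the 10 genes passed an adjusted p of 0.05 in the higher direction, where 0.629% of all genes did, and 0 in the lower direction, where 0.188% did. The median fitted log2 difference of the 10 was 6.90, beside 0.20 over all genes, and that over all genes was 1.09 under DESeq2's size factors and 0.37 with library totals. For 8 of the 10, all but Ctla4 and Cd47, every CD45+ sum lay above every GFP+ sum, which held for 6.54% of all genes. Leaving out mouse 2, or mouse 3, ended both calls, and limma on per-mouse means of log2(CPM+1) gave adjusted p of 0.105 for Cd80 and 0.0613 for Cd86, so neither passed there. DESeq2 called 7 of the 10 higher, all but Ctla4, Lag3 and Cd47, and gave Ctla4 and Lag3 no adjusted p. Of all genes it tested, it called 5.75% higher and 6.95% lower.

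Among the ligands, Cd80 had summed CPM of 3.54, 445 and 168 in CD45+ cells of mice 1 to 3, against 0.803, 0.468 and 0.190 in GFP+ cells. Mice 2 and 3 held nearly all of it, and mouse 1 stood only a few CPM above the GFP+ sums. In mouse 3 a single cell, number 65, gave 98.7% of the Cd80 counts, and in mouse 2 cell 24 gave 52.5%. The sums averaged 205 ± 223 CPM in the leukocyte sort CD45+, against 0.487 ± 0.307 CPM in the GFP+ sort (SD, n = 3 mice each), a log2 difference of 9.28 (SE 2.20, edgeR adjusted p = 0.0377), with the same direction in 3 of 3 mice. Without cell 65, a choice made after seeing the data, the difference was 8.82 and no longer passed (adjusted p = 0.0713). The GFP+ counts of Cd80 numbered 85 over all 76 cells, and 25.2% of olfactory receptor genes had a mean level at or above that of Cd80 there, so the GFP+ side of the fitted difference lies within the background.

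Cd86, the partner ligand of Cd80 on antigen-presenting cells, had summed CPM of 450.03, 441 and 107 in CD45+ cells, against 0.968, 0.455 and 0.948 in GFP+ cells of mice 1 to 3. All 3 CD45+ sums lay far above the GFP+ sums. They averaged 333 ± 195 CPM in CD45+ cells, against 0.790 ± 0.291 CPM in the GFP+ sort (SD, n = 3 mice each), a log2 difference of 8.63 (SE 1.89, edgeR adjusted p = 0.0245), higher in 3 of 3 mice. A single cell, number 38 of mouse 1, gave 99.5% of the Cd86 counts of its mouse. Cell 24 gave 89.05% in mouse 2 and cell 70 gave 63.6% in mouse 3, so each sum rests mostly on 1 cell. Without cell 38, cell 25 of mouse 1 and 1 peritoneal cell the difference was 8.28 with an adjusted p of 0.0596.

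Cd274 had summed CPM of 1618, 405 and 168 in CD45+ cells, against 2.64, 2.31 and 27.1 in GFP+ cells of mice 1 to 3. The sorts did not overlap, but the log2 difference of 5.31 (SE 1.62) had an edgeR adjusted p of 0.107. Cell 25 of mouse 1 alone held 47072 CPM of Cd274, 95.1% of the counts of its mouse, and the next highest CD45+ cell, number 31 of mouse 2, held 4847 CPM. Over all 56 CD45+ cells Cd274 ran between 0 and that 47072 CPM with a median of 25.99 CPM. The adjusted p was 0.0399 with library totals in place of TMM scaling, 2.44e-06 under DESeq2, and 0.194 at a difference of 4.41 without the cells left out above. Cell 25 had 1 of the 6 pan-leukocyte and 2 of the 5 neutrophil markers above background, with Ptprc at 11.7 CPM under its own olfactory receptor percentile of 32.2 CPM.

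Pdcd1lg2, the gene of the other PD-1 ligand, had summed CPM of 474, 80.1 and 389 in CD45+ cells, against 3.33, 1.94 and 0.296 in GFP+ cells. It differed by 7.45 on the log2 scale (SE 2.26, edgeR adjusted p = 0.105) and passed at 0.0443 when only these groups were fitted. In mouse 1 cell 38 gave 98.5% of the counts and in mouse 3 cell 68 gave 99.8%, so each of those sums is 1 cell's reading.

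Of the receptors, Pdcd1 had summed CPM of 2.25, 44.7 and 191 in CD45+ cells, against 0.756, 0 and 0.0711 in GFP+ cells, a log2 difference of 8.99 (SE 2.82, edgeR adjusted p = 0.116). Ctla4 had 362, 0.724 and 0.660 CPM in CD45+ cells, against 0.992, 0.656 and 0.130 CPM in GFP+ cells, so mouse 1 stood apart and the other mice overlapped the GFP+ range. Its difference was 6.71 (SE 2.34, adjusted p = 0.155). Havcr2 had 161, 88.1 and 10.7 CPM in CD45+ cells, against 1.02, 0.321 and 0.356 CPM in GFP+ cells, with no overlap, a difference of 7.08 (SE 2.06) and an adjusted p of 0.0950. Cell 38 gave 97.2% of the Havcr2 counts of CD45+ cells in mouse 1, and cell 22 gave 86.5% in mouse 2.

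Lag3, a receptor of activated T cells, was close to background in both of these sorts. Its summed CPM was 0.431, 2.09 and 0.275 in CD45+ cells, against 0.189, 0.201 and 0.0948 in GFP+ cells, with a log2 difference of 2.81 (SE 1.38, adjusted p = 0.289). In mean level 66.8% of olfactory receptor genes lay at or above Lag3 in CD45+ cells and 57.2% in GFP+ cells, and 1 of 56 CD45+ cells and 0 of 76 GFP+ cells were above background, where 0 allows up to 3.95% of cells. That bound takes cells as independent draws, which cells of the same mouse are not. The 1 CD45+ cell above background, in mouse 2, held Lag3 at 24.96 CPM, against its own olfactory receptor percentile of 1.68 CPM. In mean level Lag3 did not stand out from the background in either sort, and only that cell passed it.

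Neither gene of the phagocytosis pair passed by edgeR, though DESeq2 and limma on per-mouse means of log values called Sirpa. The difference between the pair was not tested. Sirpa, the myeloid receptor, had summed CPM of 297, 152 and 49.8 in CD45+ cells, against 1.16, 0.455 and 14.05 in GFP+ cells, with no overlap, a log2 difference of 4.44 (SE 1.88) and an edgeR adjusted p of 0.228. In CD45+ cells 1 cell gave 98.3%, 59.7% and 80.2% of the Sirpa counts of mice 1 to 3. In GFP+ cells of mouse 3, 1 cell gave 96.1%. Cd47, the ligand of Sirpa, had 449.6, 128 and 405 CPM in CD45+ cells, against 465, 309 and 190.0 CPM in GFP+ cells, and the sorts overlapped. The Cd47 sums averaged 327 ± 174 CPM in CD45+ cells, against 321 ± 138 CPM in the GFP+ sort (SD, n = 3 mice each). Its log2 difference was 0.04 (95% interval -2.03 to 2.10, adjusted p = 0.988), an interval that does not show the sorts to be alike, and its sign turned in 5 alternatives.

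**Figure D2:**
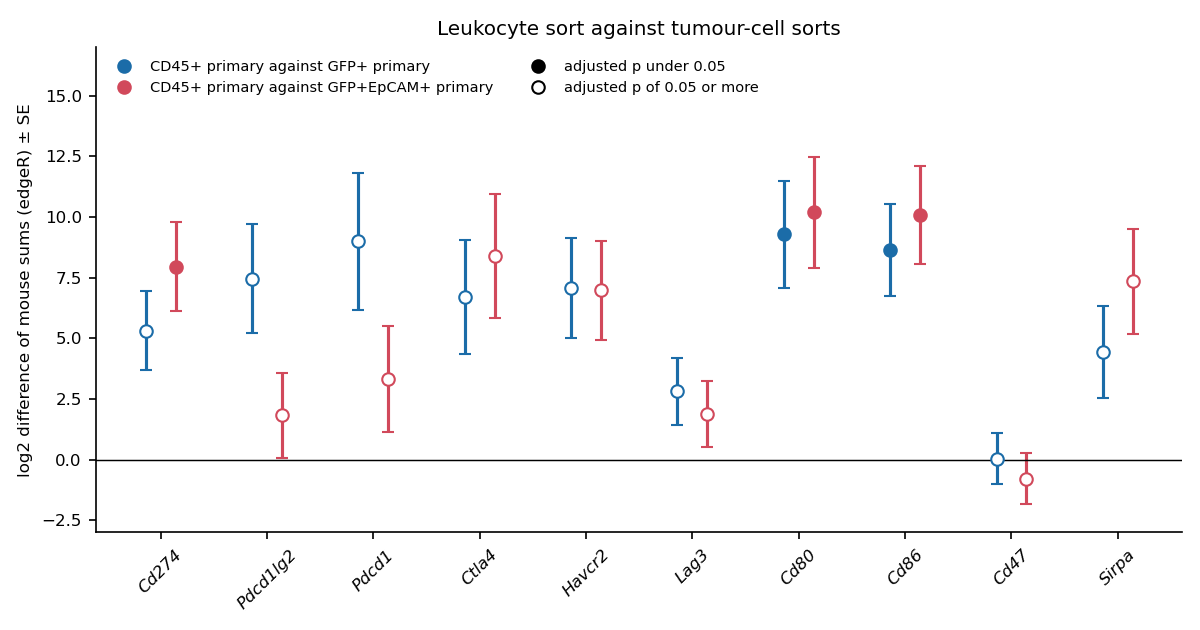
Fitted log2 differences of the 10 genes in CD45+ cells against GFP+ and against GFP+EpCAM+ primary cells, with standard errors, from edgeR fits on sums per mouse (3 mice a sort). Filled points have an adjusted p under 0.05: Cd80 and Cd86 in both comparisons and Cd274 against GFP+EpCAM+ cells, and Cd47 lies near 0 in both.

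Against GFP+EpCAM+ primary cells, the sort carrying both the tumour label and an epithelial surface protein, Cd274, Cd80 and Cd86 rose in CD45+ cells. These 3 of the 10 passed in the higher direction by edgeR, where 1.18% of all genes did, and 0 in the lower (0.508%), and 6 of the 10 did not overlap, where 21.7% of all genes did not. The median difference of the 10 was 7.16, beside 0.52 over all genes. In limma on per-mouse means of log2(CPM+1) Cd80 (adjusted p = 0.122) and Cd86 (0.0736) did not pass. Leaving out mouse 2, or mouse 3, again ended every call, and without mouse 1 there were 4. DESeq2 called 5 of the 10 higher, beside 8.49% of the genes it tested, and 0 lower, beside 10.2%.

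GFP+EpCAM+ cells held Cd274 at summed levels of 2.70, 1.11 and 0.448 CPM, so the CD45+ sums were higher by a log2 difference of 7.95 (SE 1.83, edgeR adjusted p = 0.0252). Without the 3 single cells named above the difference was 7.05 and its adjusted p 0.0580. Cd80 had 0.187, 0.215 and 0.0896 CPM in GFP+EpCAM+ cells, 13 counts in all, and differed by 10.19 (SE 2.29, adjusted p = 0.0220). Cd86 had 0.300, 0.215 and 0.0896 CPM there, 16 counts in all, and differed by 10.08 (SE 2.01, adjusted p = 0.0087).

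With so few counts on the GFP+EpCAM+ side, the sizes fitted for Cd80 and Cd86 depend on how zero and near-zero sums are treated. Sirpa differed by 7.36 (adjusted p = 0.0666), Havcr2 by 6.97 (0.0672) and Ctla4 by 8.38 (0.0707), and with library totals in place of TMM scaling each of the 3 passed, at 0.0378, 0.045 and 0.0397. Pdcd1 (3.32, adjusted p = 0.337), Pdcd1lg2 (1.82, 0.504) and Lag3 (1.88, 0.380) overlapped between the sorts. Cd47 differed by -0.78 (95% interval -2.85 to 1.29, adjusted p = 0.634), with the 3 GFP+EpCAM+ sums at 390.5, 393 and 388 CPM.

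Within the CD45+ sort, Cd274 was above background in 28 of 56 cells, 12 of 22 in mouse 1, 10 of 20 in mouse 2 and 6 of 14 in mouse 3, so each mouse held many such cells. Sirpa was above in 23 cells (4, 14 and 5 by mouse), Cd86 in 18 (2, 11 and 5) and Cd80 in 16 (2, 11 and 3), and mouse 2 gave most of each. Cd47 was above in 30 (7, 14 and 9). Havcr2 was above in 10 cells, Pdcd1lg2 in 9, Ctla4 in 6, Pdcd1 in 4 and Lag3 in 1. These cells came from animals whose CD45+ sorts differed in marked lineages: at least 2 of 8 macrophage and monocyte markers were above background in 10 cells of mouse 1, 18 of mouse 2 and 8 of mouse 3. The cut-off itself also differed, with a median over CD45+ cells of 26.3, 3.84 and 6.33 CPM in mice 1 to 3. Over single CD45+ cells it ran between 0 and 310 CPM. Marker and pair counts below use the same cut-off of each cell, and its part in all these counts was not tested.

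In GFP+ primary cells Cd274 was above in 10 of 76 cells, Sirpa in 7, Pdcd1lg2 in 5, Cd86 in 3, Cd80 in 1 and Cd47 in 61. An olfactory receptor gene was above in 0.859% of these cells on average and in 14.5% for the highest of them, and the 13.2% of Cd274 lies below that highest share. In mean level 0.444% of olfactory receptor genes lay at or above Cd274 in GFP+ primary cells. The share of cells with Cd274 passed the highest olfactory receptor share in GFP+EpCAM+ cells (22.6% against 12.9%), peritoneum (15.3% against 7.06%) and kidney (11.4% against 6.82%). It also did so in EpCAM+ cells, but not in liver or spleen. Depth differs between groups, so the expected share of cells with a count was also computed for every cell thinned to 10000 counts, a number all 368 kept cells reach. Cd274 was then expected in 34.2% of CD45+ and 5.9% of GFP+ cells (91.1% and 44.7% before thinning), where an olfactory receptor gene averaged 2.3% and 0.7%. Cd80 was expected in 22.4% of CD45+ and 1.1% of GFP+ cells (66.1% and 28.9% before), and Cd86 in 19.7% and 1.1% (66.1% and 32.9% before). The GFP+ values of Cd80 and Cd86 are near the level of a single count and near the olfactory receptor value. Cd47 was expected in 38.8% of CD45+ and 56.4% of GFP+ cells (85.7% and 94.7% before), the reverse order of its summed level, and no order is read between them.

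**Figure D3:**
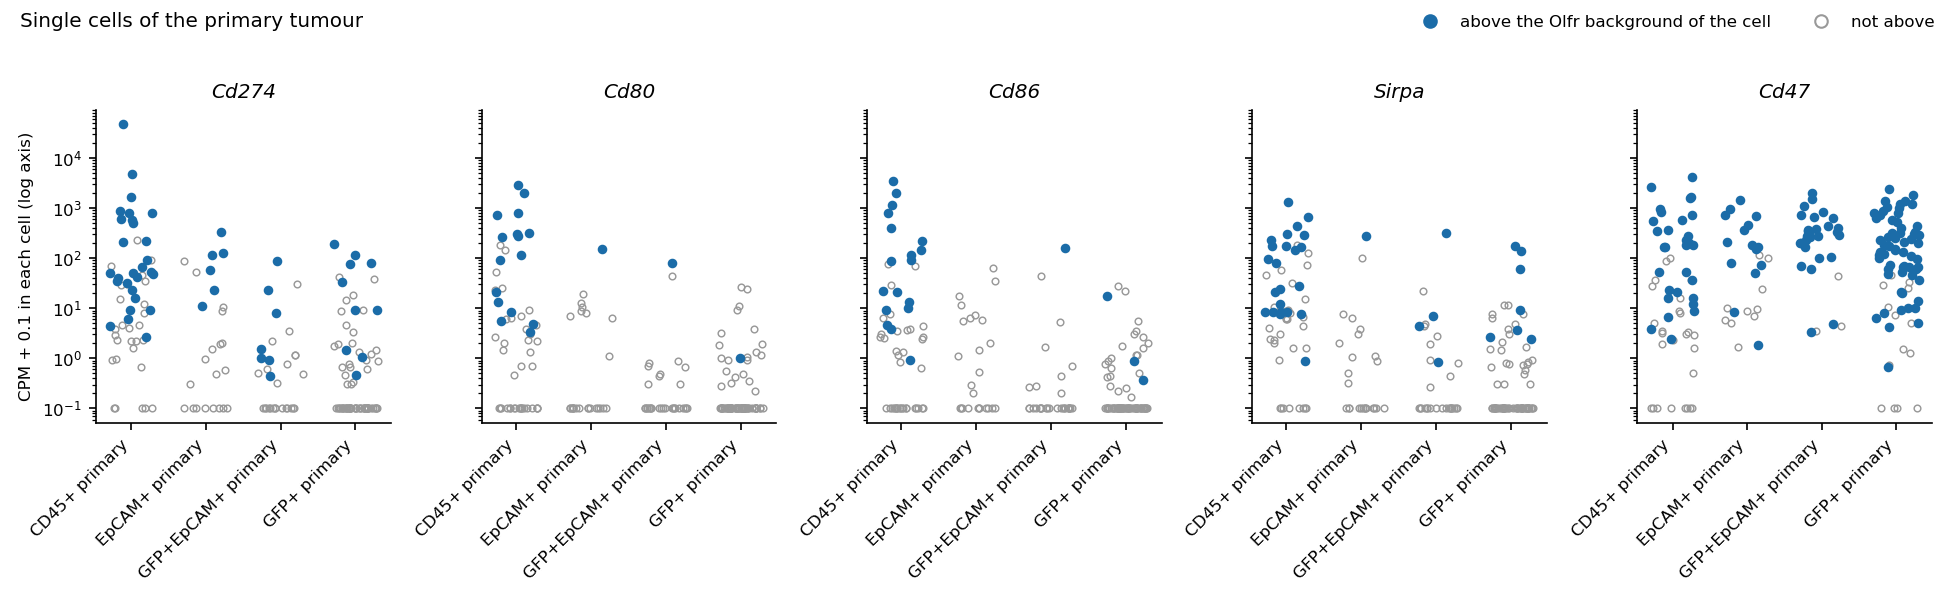
CPM plus 0.1 of every kept single cell of the 4 primary sorts for Cd274, Cd80, Cd86, Sirpa and Cd47 on a log axis, with filled points above the olfactory receptor background of the cell and cells at 0 drawn at 0.1. Single CD45+ cells reach 47072 CPM of Cd274 and 3404 CPM of Cd86, whereas the Cd47 points of the 4 sorts overlap.

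The lineage markers carried by CD45+ cells with each gene were counted with no test, since cells of 1 mouse are not replicates. At least 2 of 8 macrophage and monocyte markers were above background in 15 of 16 cells with Cd80 and 21 of 40 without it, in 17 of 18 with Cd86 and 19 of 38 without, and in 20 of 23 with Sirpa and 16 of 33 without. Havcr2, an inhibitory receptor of T cells that myeloid cells also carry, had 8 of 10 against 28 of 46. Cd274 showed no such split, at 18 of 28 and 18 of 28, but at least 2 of 5 neutrophil markers were found in 14 of 28 cells with Cd274 and 7 of 28 without. At least 2 of 8 T-cell markers were found in 5 of 6 cells with Ctla4 and 6 of 50 without, and in 3 of 4 cells with Pdcd1 and 8 of 52 without. The same Ctla4 cells carried at least 2 NK-cell markers in 4 of 6 (5 of 50 without Ctla4) and macrophage and monocyte markers in 5 of 6 (31 of 50 without), and cells with Pdcd1 carried macrophage and monocyte markers in 3 of 4 (33 of 52 without).

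Other lineages moved along. Sirpa-positive cells carried at least 2 of 6 fibroblast markers in 12 of 23 cells and the others in 5 of 33, and Pdcd1-positive cells carried at least 2 of 5 epithelial markers in 4 of 4 cells and the others in 19 of 52. For Cd80 the fibroblast counts were 8 of 16 with it and 9 of 40 without. Cells with Cd274 carried epithelial markers in 14 of 28 (9 of 28 without) and fibroblast markers in 11 of 28 (6 of 28 without). Epithelial markers were also found in 7 of 9 cells with Pdcd1lg2 (16 of 47 without) and 7 of 10 with Havcr2 (16 of 46 without). No doublet caller was run on these sorted cells, and the part of cells with markers of several lineages in these counts was not tested.

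**Figure D4:**
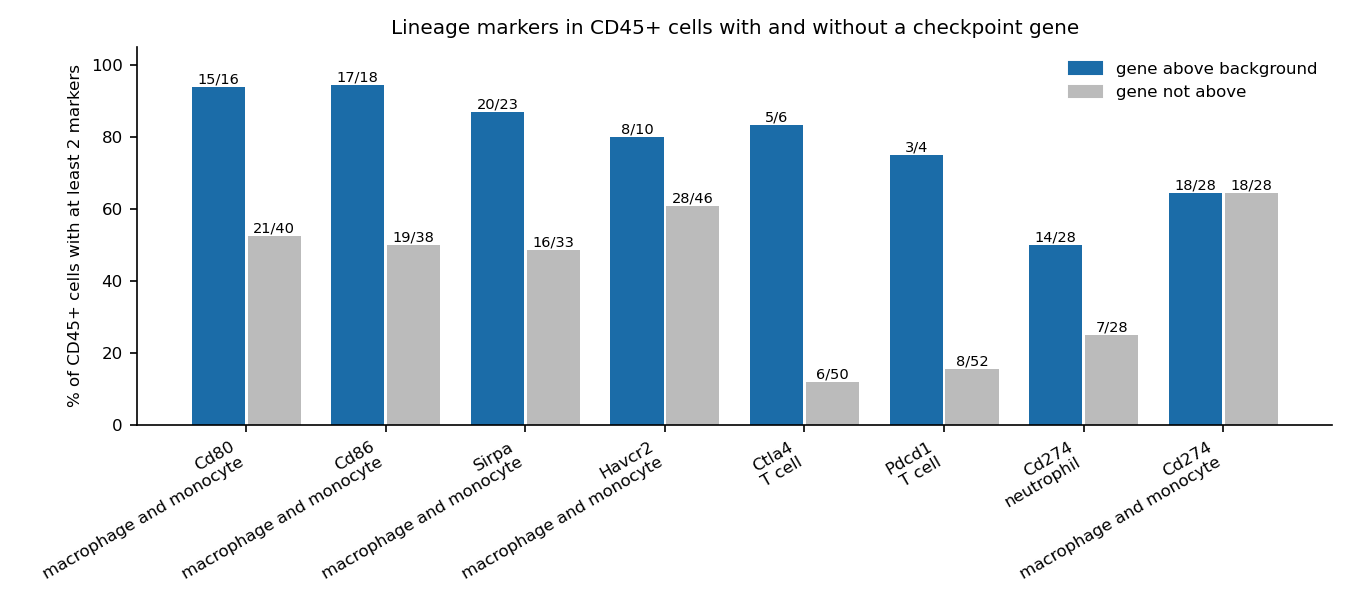
Percent of CD45+ cells with at least 2 lineage markers above background among cells with (left bar) and without (right bar) a gene above background, for the gene and marker list under each pair of bars, with the number of cells on each bar. Macrophage and monocyte markers stand at 17 of 18 cells with Cd86 and 19 of 38 without, and T-cell markers at 5 of 6 cells with Ctla4 and 6 of 50 without.

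How often pairs of these genes met in a CD45+ cell varied from pair to pair, and is given with no test. Cd80 and Cd86 were both above in 12 cells, of 16 and 18, Cd80 and Sirpa in 12, and Cd86 and Sirpa in 13 of 18 and 23. Pdcd1lg2 and Havcr2 shared 7 cells, of 9 and 10. Cd274 and Pdcd1lg2 shared 6 cells, which is 6 of the 28 with Cd274 and 6 of the 9 with Pdcd1lg2, and Cd47 and its receptor Sirpa shared 15, of 30 and 23. Pdcd1 and Sirpa shared 0 cells, of 4 and 23, Cd274 and Pdcd1 shared 1, of 28 and 4, Ctla4 and Cd86 shared 1, of 6 and 18, and the single Lag3 cell held neither Cd274 nor Cd80.

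Single cells show which lineages the high readings came with. The highest Ctla4 reading, 3629 CPM in cell 26 of mouse 1, was in a cell with Cd3e, a subunit of the T-cell receptor complex, at 1943 CPM and 6 of 8 T-cell markers beside 3 of 5 epithelial markers, and that cell held 86.4% of the group's Ctla4 counts. The highest Pdcd1 readings, 3191 CPM in cell 70 of mouse 3 and 671 CPM in cell 25 of mouse 2, came with Cd3e at 963 and 1566 CPM. Cell 70 also had 5 of 5 epithelial, 4 of 8 macrophage and monocyte and 3 of 6 fibroblast markers above background, and cell 25 had 4 of 5 epithelial markers. These 3 cells carry most of the Ctla4 and Pdcd1 counts of the sort.

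For the myeloid genes, cell 24 of mouse 2 held Cd86 at 3404 CPM and Cd80 at 2025 CPM with 6 of 6 pan-leukocyte, 5 of 8 macrophage and monocyte and 4 of 5 epithelial markers. Its background percentile was 0 CPM, so a single count passed, as with C1qa at 0.242 CPM and Epcam at 0.966 CPM. These marker counts therefore do not settle its lineage. Havcr2 was highest at 799.5 CPM in cell 22 of mouse 2, with the complement gene C1qa at 1282 CPM and 7 of 8 macrophage and monocyte markers. Cell 38 of mouse 1, of 4695120 counts, had Sirpa at 1299.9 CPM, Pdcd1lg2 at 2080.0 CPM, Cd86 at 1992 CPM and Havcr2 at 694 CPM, with Lyz2, a lysozyme of myeloid cells, at 50146 CPM and Cd3e at 81.4 CPM, and so carried markers of both lineages.

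Cd274 and Cd80 met in cell 65 of mouse 3, at 866 and 2925 CPM, with S100a8, a neutrophil protein, at 3760 CPM. That cell also had 5 of 6 fibroblast and 3 of 5 epithelial markers above background. Cell 68 of the same mouse held Cd274 at 1649 CPM and Pdcd1lg2 at 6139 CPM, with 3 of 5 neutrophil, 4 of 5 epithelial and 4 of 6 fibroblast markers above background.

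Among the EpCAM+, GFP+EpCAM+ and GFP+ sorts of the primary tumour edgeR called none of the 10 genes, and DESeq2 called 2 in 1 of the comparisons. EpCAM+ cells were not selected for GFP. In EpCAM+ against GFP+ cells edgeR called 0 of the 10 and 0 of 19703 genes (0% in each direction), 0 of the 10 had an unadjusted p under 0.05 beside 2256 of all genes, and DESeq2 called 0 of the 10 beside 2.57% of genes higher and 4.89% lower. Cd274 had summed CPM of 5.98, 7.76 and 4.91 in EpCAM+ cells, against the 2.64, 2.31 and 27.1 CPM of GFP+ cells, so the groups overlapped. Cd47 had 332, 136 and 459.97 CPM in EpCAM+ cells and differed by -0.03 (95% interval -2.09 to 2.03), and by 0.62 with DESeq2's size factors. Pan-leukocyte markers summed to 4.74 to 45.1 CPM in EpCAM+ and 5.64 to 148 CPM in GFP+ cells.

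In GFP+EpCAM+ against GFP+ primary cells edgeR also called 0 of the 10 and 0% of genes in each direction, with 2 of the 10 and 2002 of all genes at an unadjusted p under 0.05. DESeq2 called those 2, Pdcd1 (5.72, adjusted p = 0.0448) and Pdcd1lg2 (5.76, adjusted p = 0.0137), beside 2.94% of genes higher and 3.54% lower. By edgeR they differed by 5.67 (adjusted p = 0.388) and 5.63 (adjusted p = 0.298). Both rest on single cells. Cell 14 of mouse 1 held 1538 CPM of Pdcd1lg2, 99.05% of the group's counts, with 0 of 6 pan-leukocyte and 5 of 5 epithelial markers, and cell 61 of mouse 3 held 112 CPM of Pdcd1, 98.8% of the group's. Without mouse 1 the Pdcd1lg2 difference was -2.52 and without mouse 3 that of Pdcd1 was -1.65.

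In GFP+ cells of the 4 sites against GFP+ primary cells, which asks whether spread cells differ from those of the organ injected, no gene of the 10 passed by edgeR over 21988 genes or by DESeq2. EdgeR called 0% of genes higher and 0.0091% lower in peritoneum, 0% in each direction in kidney, 0.00455% higher and 0.0091% lower in liver and 0% in each direction in spleen. DESeq2 called 0.617% of genes higher and 0.648% lower for peritoneum. Its higher and lower shares were 0.796% and 0.615% in kidney, 3.4% and 3.97% in liver, and 0.679% and 0.792% in spleen. An unadjusted edgeR p under 0.05 was reached by 1 of the 10 in peritoneum, kidney and liver each and by 2 in spleen, beside 1341, 1321, 3130 and 1355 of all genes. Kidney, liver and spleen rest on 2 mice each.

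Havcr2 was the gene with such a p in peritoneum and kidney, and 1 cell gave each reading. Its summed CPM was 42.5, 0.204 and 1.33 in peritoneum of mice 1 to 3 and 36.1 and 2.82 in kidney of mice 2 and 3, against 1.02, 0.321 and 0.356 in GFP+ primary cells. The differences were 3.80 (SE 1.70, adjusted p = 0.676) and 5.55 (SE 1.90, adjusted p = 0.451). Cell 31 of mouse 1 held 536 CPM, 91.7% of the peritoneal counts, with 0 of 6 pan-leukocyte markers, and cell 34 of mouse 2 held 214 CPM, 96.3% of the kidney counts, with 3 of 6.

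Pdcd1 had summed CPM of 20.9 and 3.50 in spleen and 8.18 and 0 in liver of mice 2 and 3, against 0.756, 0 and 0.0711 in GFP+ primary cells of mice 1 to 3. It differed by 6.21 in spleen (SE 1.93, adjusted p = 0.407) and by 4.11 in liver (SE 1.78, adjusted p = 0.295), and the liver difference was -7.03 without mouse 2. Of 35 splenic cells 5 were above background for Pdcd1, and the highest, at 172 and 143 CPM, carried 6 of 6 fibroblast markers and 0 of 8 T-cell markers. Those 5 cells are 14.3% of the splenic cells, the share that the highest olfactory receptor gene also reached there (0.792% on average), and cell 27 gave 98.2% of the Pdcd1 counts of mouse 2. Lag3 had 2.73 and 0.637 CPM in spleen and differed by 3.65 (SE 1.64, adjusted p = 0.719), with 3 of 35 cells above background and 98.75% of the counts of mouse 2 in 1 cell. Its mean level in spleen, 6.07 CPM in mouse 2 and 1.93 CPM in mouse 3, averaged the highest of the 8 groups, beside 1.45 ± 0.287 CPM in CD45+ cells.

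Cd274 in liver had summed CPM of 235 in mouse 2 and 13.1 in mouse 3, and cell 12 of mouse 2 gave 97.4% of the group's counts. That mouse's sum was itself 75.3% from its deepest cell, and liver cells were shallow, with 16 of 33 kept. In peritoneum Cd274 had 4.86, 1.961 and 3.32 CPM, in kidney 4.06 and 1.03 CPM and in spleen 0.715 and 5.16 CPM, all within the range of GFP+ primary cells apart from lower values in 3 of these 7 sums. Mean Cd274 levels over mice ran in the order CD45+ (933 ± 1137 CPM), liver (40.6 ± 36.5), EpCAM+ (33.2 ± 9.26), peritoneum (20.5 ± 11.4), kidney (11.8 ± 8.14), GFP+ primary (9.52 ± 4.91), spleen (8.29 ± 5.29) and GFP+EpCAM+ (5.15 ± 5.91; SD over 2 or 3 mice). No neighbours in that order differed by more than the sum of their SDs.

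Outside the leukocyte sort 3 cells were above background for both Cd80 and Cd86. Cell 14 of the GFP+EpCAM+ sort of mouse 2 rests on 1 count of Cd80 and 2 of Cd86, and liver cell 20 of mouse 3 on 2 and 1 counts. That cell 14 had 5 of 6 pan-leukocyte, 5 of 8 macrophage and monocyte and 5 of 5 epithelial markers above background. The liver cell had 4 of 6, 3 of 8 and 4 of 5 of them, with a background percentile of 0 CPM. The third, number 36 of the peritoneum of mouse 2, held 91 counts of Cd86 (3754 CPM) and 33 of Cd80 (1361 CPM). This peritoneal cell, labelled GFP+ and of 24242 counts, had 5 of 6 pan-leukocyte and 4 of 8 macrophage and monocyte markers above background, with Ptprc at 0. The background percentile of this cell was also 0 CPM, so a single count passed. The cell made up nearly all of the mean Cd86 level of its mouse, 157 CPM beside 9.46 and 1.60 CPM in the other peritoneal samples, but its shallow depth left the summed level at 1.94 CPM. Macrophage and monocyte markers summed to 11.7 to 1246 CPM in peritoneum and 13.5 to 4364 CPM in kidney, against 6.33 to 35.3 CPM in GFP+ primary cells, and their part in the site values was not tested.

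**Figure D5:**
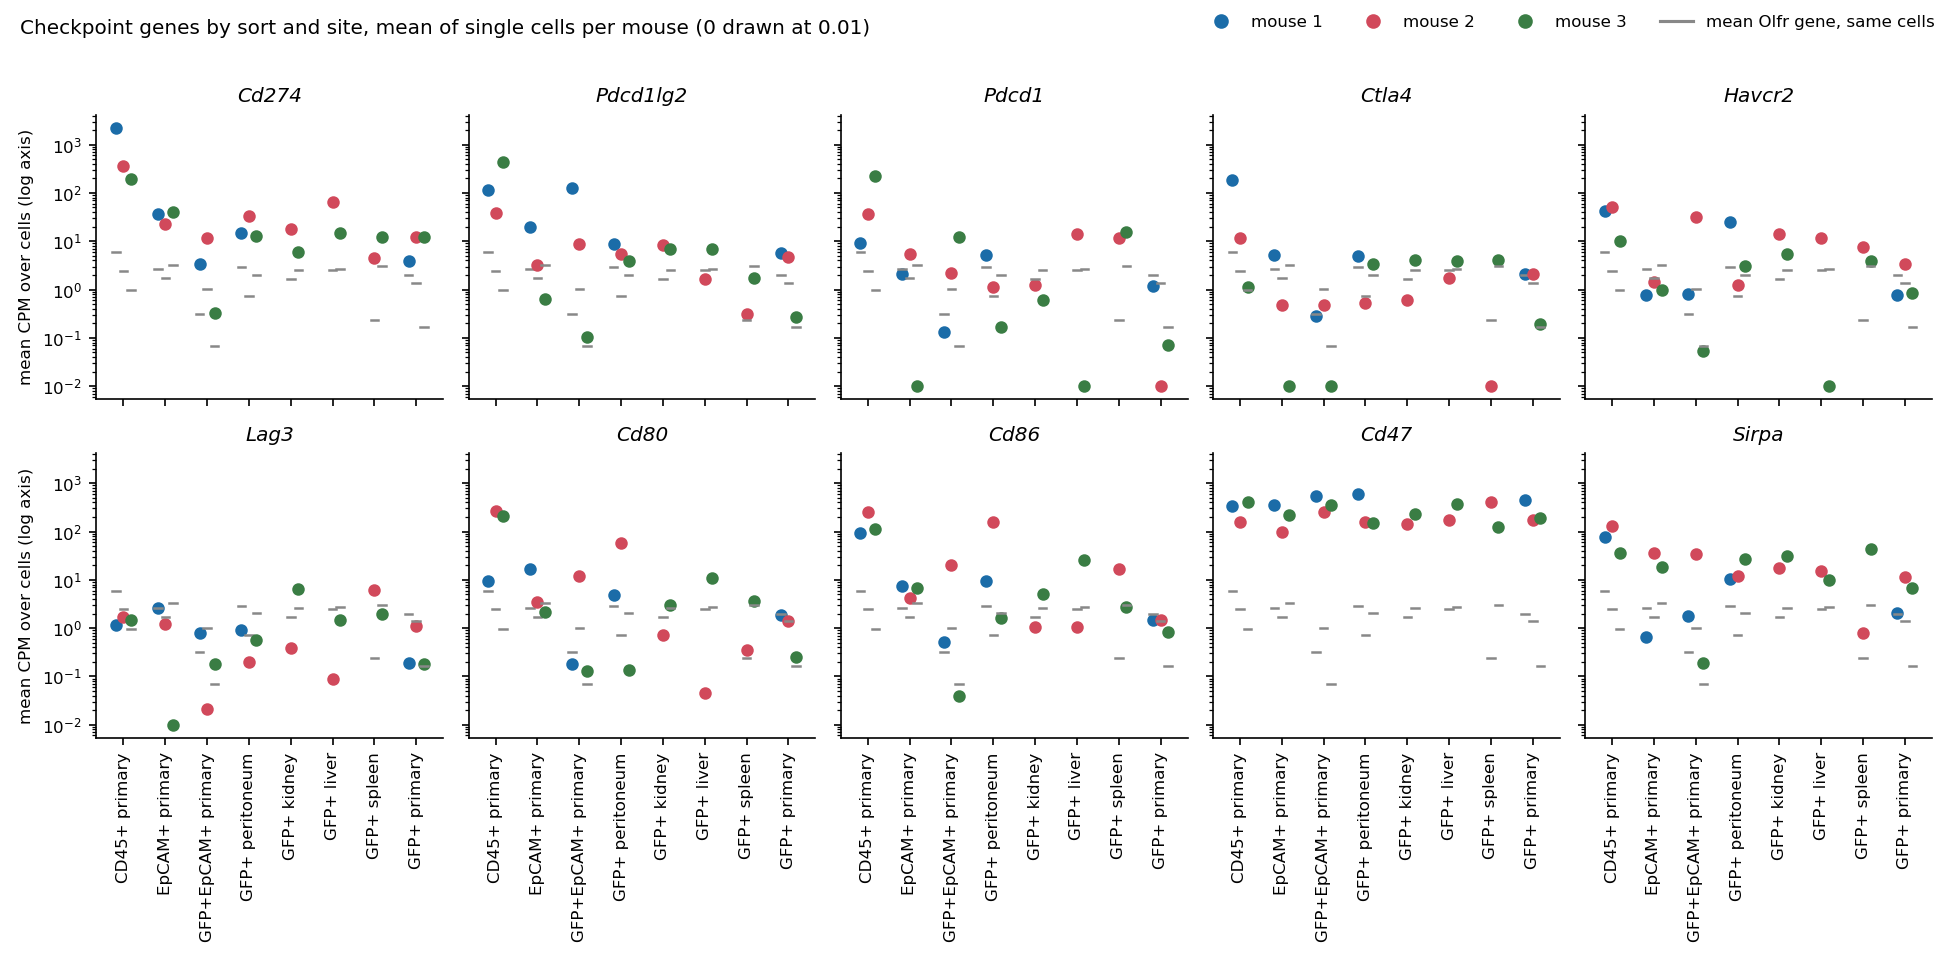
Mean CPM per mouse of the 10 genes in the 8 groups on a log axis, 1 point a mouse, with 0 drawn at 0.01 and the mean of olfactory receptor genes marked. CD45+ means of Cd274 run between 192 and 2242 CPM, whereas the Cd47 means of every other group overlap those of GFP+ primary cells.

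Cd47 was called in none of the comparisons by edgeR. Its mean level in descending order was 386 ± 148 CPM (GFP+EpCAM+), 303 ± 132 (CD45+), 301 ± 256 (peritoneum), 276 ± 160 (GFP+ primary), 271 ± 139 (liver), 265 ± 195 (spleen), 221 ± 127 (EpCAM+) and 186 ± 61.5 CPM (kidney; SD over 2 or 3 mice). No neighbours in that order differed beyond their spread. The fitted log2 difference from GFP+ primary cells was -0.37 for peritoneum (95% interval -2.47 to 1.73, and 0.16 with library totals) and -1.07 for kidney (-3.51 to 1.36). The kidney sums, 174 and 112 CPM, both lay below every GFP+ primary sum, of which the lowest was 190.0 CPM. The difference was -0.46 for liver (-2.84 to 1.92) and 0.22 for spleen (-2.11 to 2.56, but -0.06 with DESeq2 and -0.11 with library totals). These intervals do not show that the sites are alike.

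Of 32 other checkpoint and co-stimulation genes, 29 could be tested in the primary sorts. In CD45+ against GFP+ cells 1 was called higher, beside 0.629% of all genes, and 0 lower, beside 0.188%, with a median difference of 2.56 beside 0.20 over all genes. It was Cd48, a ligand of the lymphocyte receptor 2B4 on blood cells, with summed CPM of 563, 61.8 and 0.165 in CD45+ cells, against 0.165, 0.0535 and 0.0711 in GFP+ cells, a log2 difference of 10.28 (SE 2.50, edgeR adjusted p = 0.0439). Mouse 3 overlapped the GFP+ cells, and with a block for the mouse the call was lost (9.49, adjusted p = 0.0811). Tnfrsf4, the co-stimulatory receptor OX40, differed by 10.40 (adjusted p = 0.0586), and Cd244, which encodes 2B4, by 7.07 (adjusted p = 0.0972).

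In CD45+ against GFP+EpCAM+ cells 3 of the 29 were called higher, beside 1.18% of all genes, and 1 lower, beside 0.508%. Tnfrsf4 had 3077, 0.557 and 1.60 CPM in CD45+ cells, against 0.112, 0 and 0 CPM in GFP+EpCAM+ cells (difference 12.99, adjusted p = 0.0241), and mouse 1 gave nearly all of it. Cd48 differed by 10.98 (adjusted p = 0.0290) and Cd40, a co-stimulatory receptor of antigen-presenting cells, by 10.06 (adjusted p = 0.0447). Ceacam1, an adhesion protein of epithelial cells and a proposed TIM-3 ligand, was lower, with 10.7, 31.5 and 4.67 CPM in CD45+ cells, against 1065, 525 and 820.3 CPM in GFP+EpCAM+ cells (difference -5.92, adjusted p = 0.0493, and 0.0514 without CD45+ cell 65 of mouse 3). In the other comparisons 0 genes of this list were called by edgeR.

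Interferon gamma is the best known inducer of Cd274. Of 9 genes of its pathway 8 could be tested in the primary sorts, all but Ifng itself, and edgeR called 0 in every comparison. In CD45+ against GFP+ cells the median difference was 0.18 beside 0.20 over all genes, and 0 had an unadjusted p under 0.05. The receptor chain Ifngr1 differed by 1.77 (adjusted p = 0.368) and the receptor chain Ifngr2 by -1.92 (adjusted p = 0.456). In CD45+ against GFP+EpCAM+ cells Irf1, a transcription factor that interferon induces, differed by -3.65 (adjusted p = 0.140).

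The DNA reads of the same cells gave the dosage of the chromosomes that hold these ligands, as the mean count per bin of the chromosome over that of all autosomes. Chromosome 19, with Cd274 and Pdcd1lg2, had per-mouse median dosages of 1.11, 1.47 and 1.25 in GFP+ primary cells, against 1.01, 1.12 and 1.03 in CD45+ cells. They averaged 1.28 ± 0.184 in GFP+ cells, against 1.05 ± 0.0605 in CD45+ cells (SD, n = 3 mice each), a difference of 0.224 (exact permutation test, two-sided, p = 0.2, where 3 against 3 mice cannot go below 0.1). The GFP+ value was the higher in 3 of 3 mice, and an exact permutation test within mice gave p = 0.25, the smallest that 3 pairs allow. Chromosome 16, with Cd80, Cd86 and Cd47, had 0.974 ± 0.109 in GFP+ and 0.988 ± 0.0067 in CD45+ cells, a difference of -0.0138 (exact permutation test, two-sided, p = 1.0).

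Genes with the most similar pattern to each of the 10 were sought over the 21 sums of mouse and group, as Pearson's r of log2(CPM+1), given as a description because the points share libraries and most of the range lies between CD45+ and other cells. Sirpa was most like Tyrobp (0.94), Ms4a6d (0.91) and Csf1r (0.91), Cd86 like Bcl2a1d (0.98), Nkg7 (0.97) and Cd83 (0.96), and Cd80 like Pira2 (0.96), Cst7 (0.96) and Il7r (0.94). Ctla4 was most like Cd247 (0.97), Cd79b (0.97) and Klra1 (0.96), and Cd274 like Bin2 (0.93), Evi2b (0.88) and Itgal (0.87). For Cd47 the highest were Ube2d3 (0.75), Tpm4 (0.74) and Vdac2 (0.74). Over the 56 CD45+ cells alone the values were lower: Ctla4 with Itgb7 0.77, Pdcd1 with Gimap1 0.73, Cd80 with Abi3 0.68, Cd86 with Syngr2 0.67, Sirpa with Rgs2 0.66 and Cd274 with Ecm2 0.54, each the highest for its gene. The MHC class II gene H2-Eb1 (0.63 with Cd86) and Cd68 (0.60 with Sirpa) came next for those genes.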

How the data were processed

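Each tube gave RNA and DNA of 1 cell or of a bulk sample (SMART-Seq2 cDNA, then SeqXE genome amplification, 76-base single-end reads) in 420 single-cell and 6 bulk libraries. The authors deposited RNA in the form of expected counts for each gene, 97.4% of them whole numbers. They deposited DNA as read counts in genomic bins. Per the submitters' processing notes STAR, kallisto, Bowtie 1.0 and mm9 were used, with the role of each not given in the sources used here. Without a stated strand or multi-mapping rule, reads of overlapping genes cannot be told apart.

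The members and gene lists were chosen with earlier results of these data known. In peritoneum of mouse 1, 2 pairs of libraries had DNA counts differing by less than sampling noise (chi-square per degree of freedom 0.735 and 0.854, the next lowest pair 1.61), though not RNA counts, and each pair was counted as 1 cell, leaving 418, of which 368 were kept. ERCC spike-ins (92 rows) and 4 rows with repeated symbols were left out. RNA counts of the kept cells of each mouse and group were added, rounded to whole numbers, filtered with filterByExpr, scaled by TMM and tested with edgeR 4.0.16 (R 4.3.3), with a fit of the 4 primary sorts and another of the GFP+ primary cells beside the sites, with Benjamini-Hochberg adjustment over all genes. All 10 members passed the filter in both fits. The test was tried on simulated counts with known changes. The SE of a fitted difference is its size over the root of the F statistic, and its 95% interval is the difference plus and minus the normal quantile times the SE, and they and floors of 3 counts cover the spread and counting error they are made from only.

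Alternatives were DESeq2 1.42.0, library totals without TMM, limma 3.58.1 on per-mouse means of log2(CPM+1) and log2(CPM+0.1), other cell and gene filters, fits restricted to the compared pair of groups, a mouse block, leaving out the deepest cells, and leaving out a mouse, where a group of 1 mouse is assumed to vary like the others. Mouse numbers pair samples because they are the same animal. Deviations of sums of the same mouse had a median correlation of 0.0655 (0.0262 to 0.216) in the primary sorts and 0.108 (-0.296 to 0.428) in the sites. The 10 members are all described, and from each list up to 4 called genes with the smallest p were named, or up to 3 uncalled ones. The genes named by likeness were the 3 with the highest r among those averaging at least 10 CPM, or detected in 10 or more CD45+ cells, leaving out predicted and Y-linked genes. DNA dosage used cells with at least 50000 reads. Results for an item withheld for evaluation are not reported here.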

Additional observations from a re-analysis of the deposited data

Results flagged for a closer look

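The bulk libraries entered no comparison above, and each is a single library with no replicate. In the bulk library of 200 GFP- cells from the peritoneum of mouse 1 (785644 counts), 2 of the 10 genes stood above both the 99th percentile of its olfactory receptor genes (8.28 CPM) and the bulk GFP+ library of the same site. Cd274 was at 29.3 CPM (29.275), against 1.10 CPM in the bulk GFP+ cells, and Sirpa at 165.5 CPM (165.469), against 1.46 CPM. Cd47 was at 263 CPM in the GFP- and 354 CPM in the GFP+ bulk library. In a bulk library fewer cells of a type and less RNA per cell cannot be told apart.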

How the results depend on the processing

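By edgeR 2 of the 10 genes were called in CD45+ against GFP+ cells, 3 against GFP+EpCAM+ cells and 0 elsewhere. In that order of the first pair, the counts were 7 and 5 with DESeq2, 4 and 5 without the deepest cell of each sum, and 1 and 2 without 3 single cells, an alternative chosen after seeing the data. Without CD45+ cell 65 of mouse 3, also chosen after seeing the data, they were 1 and 3. They ran between 0 and 2, and between 0 and 4, when a mouse was left out. Library totals without TMM gave 6 against GFP+EpCAM+ cells, and DESeq2 gave 2 in GFP+EpCAM+ against GFP+ cells. With a replicate block for the mouse the counts were 2 and 3 and no call on the 10 changed. Per-mouse means of log values in limma also called 2 and 2, but not the same genes: Cd80 (adjusted p 0.105 with log2(CPM+1)) and Cd86 (0.0613) were lost in CD45+ against GFP+ cells and Cd274 (0.0107) and Sirpa (0.0344) were called. The share of CD45+ cells with any gene above background was 66.1% above the highest olfactory receptor gene and 100.0% at 1 count or more. No dosage difference changed direction, and exact tests within mice, added after seeing the data, gave p of 0.25 and 1.0 for chromosomes 19 and 16.

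The differences that changed sign were not past the threshold by edgeR with all samples, though DESeq2 called Pdcd1lg2 and Pdcd1 in GFP+EpCAM+ against GFP+ cells, and the cause was not tested. Cd47 in CD45+ against GFP+ cells was -0.065 with no gene filter, -1.27 and -1.55 in limma, -0.16 with the block and -0.85 to 0.56 without a mouse. In EpCAM+ cells Cd47 was 0.62 with DESeq2, 0.055 in the fit of those groups, 0.42 without the deepest cells and -0.74 to 0.45 without a mouse. It was 0.037 in CD45+ against GFP+EpCAM+ cells without the deepest cells, 0.16 in peritoneum with library totals and 0.39 and 0.46 there in limma. In liver it was 0.61 and 0.66 in limma and -2.68 to 0.32 without a mouse. In spleen it was -0.060 with DESeq2, -0.11 with library totals, -0.40 with the block and -2.13 to 0.98 without a mouse. In GFP+EpCAM+ cells Pdcd1lg2 was -0.24 in limma with log2(CPM+0.1) and -2.52 to 6.47 without a mouse, and Pdcd1 was -0.72 without the deepest cells and -1.65 to 8.49 without a mouse. Lag3 against GFP+EpCAM+ cells ran between -0.54 and 1.85, and Pdcd1 in liver between -7.03 and 6.23. Of the other gene-level alternatives 444 kept their side of the threshold, 26 crossed it upward and 51 downward.

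With 3 mice a sort and a biological coefficient of variation of 1.16, differences of several log2 units can miss the threshold, and single deep cells can decide a sum.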

Other observations

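The bulk library of 100 CD45+ primary cells of mouse 1 was shallow (121118 counts), and all 10 genes lay below the 99th percentile of its olfactory receptor genes (89.4 CPM), with Cd274 at 57.8 CPM and Sirpa at 66.1 CPM. Cd47 there had 2 counts (16.5 CPM), under the 24.8 CPM that 3 counts make, beside 449.6 CPM summed over the single CD45+ cells of the same mouse. In bulk GFP+ primary cells Cd47 was at 464 CPM in mouse 1 and 181 CPM in mouse 2, and Cd274 at 19.4 CPM and 0.262 CPM. The sources label the library of mouse 1 both GFP and EpCAM.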
